A study of Drosophila melanogaster with 4 samples.

Results

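The genes described here are the nuclear genes of Drosophila melanogaster that encode subunits of the mitochondrial respiratory chain. They were chosen by name: every gene whose FlyBase symbol begins with ND-, UQCR-, COX or ATPsyn, or is SdhA, SdhB, SdhC or SdhD. This gave 84 of 23769 named genes, of which 40 belong to complex I, 4 to complex II, 9 to complex III, 16 to complex IV and 15 to complex V. RNA was sequenced from whole larvae of Smn mutants (strain SmnX7/D, 2 libraries) and of wild type (strain Oregon R, 2 libraries), both collected at 74 ± 2 h after egg laying and reared at 24 ± 1 °C. The labels give no genetic background beyond these strain names, and the groups were matched by age in hours, with no developmental stage given. Polyadenylated RNA was prepared with a kit that does not mark the strand, and the labels do not say that the 2 libraries of a group came from separate cultures, so p-values measure the spread between these libraries. The exon usage tables also cover published larvae at puff stage 1-2 (3 libraries), second instar (2 libraries) and the third instar at 12 h (2 libraries).

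Smn, the survival motor neuron protein, helps assemble the small nuclear ribonucleoproteins from which the spliceosome is built. The respiratory chain passes electrons from NADH through complex I, or from succinate through complex II, to ubiquinone, complex III, cytochrome c and finally oxygen at complex IV, and complex V uses the resulting proton gradient to make ATP. Its nuclear genes are abundantly expressed in muscle and other tissues with high energy demand, and most of their transcripts must be spliced before export and translation. A retained intron inside a 5′ untranslated region (5′ UTR) can lengthen the leader without changing the encoded protein, whereas one inside the coding region usually adds stop codons.

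Of the 84 genes, 64 had at least 1 splicing event among the authors' lists, with 271 of 31989 events in all. These were 204 retained introns, 61 alternative 5′ splice sites, 3 skipped exons, 2 alternative 3′ splice sites and 1 pair of mutually exclusive exons. Another 20 genes had none, and 17 of those 20 carry symbols that end in L, with or without a digit, a suffix that many paralogs of subunit genes carry, though not every such symbol marks one (22 of the 84 symbols end so). The other 3 were ND-AGGG, ND-B8 and UQCR-11. Exon bins were listed for 80 of the 84 genes, 333 bins in each table.

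The 5′ and 3′ splice sites of 6 of the 8 introns whose retention was called different between the groups are printed. Those of ATPsynF and ATPsynC are not printed. The first 6 bases and the last 2 bases of each intron are in capitals. Lower case letters before the first capital are the last 3 bases of the upstream exon. The sequences come from the Release 6 genome (dm6), read on the gene's strand, and the coordinates are those of the introns in that build: ND-PDSW chr2L:3466229-3466315 (+), ND-15 chr2L:155430-155566 (+), ND-ACP chr3L:1330048-1330130 (+), COX5B chr2L:6557985-6558417 (+), ATPsynE chr3R:14327128-14327252 (+) and ATPsyngamma chr3R:29748770-29748823 (-).
ND-PDSW 5′ splice site: caaGTAAATatg
ND-PDSW 3′ splice site: agctcttccgcttacgccAG
ND-15 5′ splice site: aagGTGTGTgat
ND-15 3′ splice site: gtgtgtgcttcgctccacAG
ND-ACP 5′ splice site: agcGTAAATatc
ND-ACP 3′ splice site: ccgctgcgtttccgttgcAG
COX5B 5′ splice site: aaaGTAAGTggt
COX5B 3′ splice site: cccacttctccgccttgcAG
ATPsynE 5′ splice site: ttgGTAATTttg
ATPsynE 3′ splice site: agtacatccttttcttgcAG
ATPsyngamma 5′ splice site: aagGTAGGTgaa
ATPsyngamma 3′ splice site: cgagctaattttcgcgacAG
Every one of these introns began with GT and ended with AG, as did 98.9% and 99.8% of 60473 annotated introns of at least 40 bases. GTAAGT, the most common start of the 6 searched, opened 22.6% of annotated introns and, among the introns printed, the one of COX5B. The start GTAAAT, shared by ND-PDSW and ND-ACP, opened 2.57% of annotated introns, and the starts of ND-15 (GTGTGT), ATPsynE (GTAATT) and ATPsyngamma (GTAGGT) opened 0.936%, 1.70% and 2.39%. Among the 32 tested introns of respiratory chain genes that were found in the annotation, 7 began with GTAAGT and 2 with GTGAGT, which opened 19.3% of annotated introns. Of the 7 introns called higher in Smn mutants, 2 began with GTAAGT (COX5B and the unprinted ATPsynF) and 0 with GTGAGT.

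The depth behind the values was 23205272 and 22168757 read pairs over retained intron events in the Smn mutant libraries, and 21652913 and 14881420 in the wild type libraries. The wild type libraries lay farther apart than the mutant libraries. In spliced pairs, the root mean square difference between the 2 libraries of a group was taken over 9957 introns. It was 0.454 log2 units for Smn mutants and 1.14 for wild type. Over the 132 tested introns of respiratory chain genes these differences were 0.301 and 1.18. Spliced pairs of the respiratory chain genes made up 4.01% and 4.08% of all spliced pairs in Smn mutant libraries, against 3.57% and 1.60% in wild type libraries, so that wild type library 1 lay near the mutants and wild type library 2 well below. Smn itself is listed as 1 exon bin without a test and has no splicing event, so the files used here give no check of the mutation.

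Tissue markers also differed between the libraries, summed as CPM, here the spliced pairs of the list scaled to a fixed total of spliced pairs per library. Muscle markers (10 of 10 genes with introns listed) came to 51930 and 30830 in Smn mutants against 21380 and 13840 in wild type. Fat body markers (6 of 8, with none for Fbp1 and Lsp2) came to 4420 and 5100 against 39910 and 27530. The median log2 change in spliced pairs was 1.56 over 68 tested muscle introns and -0.42 over 12 tested fat body introns. The sums thus need not describe each gene of a list. Neuron markers (5 of 8) came to 135 and 130 in Smn mutants against 130 and 269 in wild type, and gut markers (3 of 8) to 1314 and 1519 against 2049 and 902.5. Testis markers (4 of 8) lay at 6.368 and 1.301 in Smn mutants against 7.343 and 49.02 in wild type, and none of the 7 salivary gland markers had an intron listed. The part of these differences in the results on respiratory chain genes was not tested, and in whole larvae fewer cells of a type and less RNA per cell cannot be told apart.

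Most introns of these genes were spliced out almost completely in both groups. Of 201 introns listed in all 4 libraries, 129 had a mean of at least 20 spliced pairs, and in 104 of those the authors' retained fraction was at most 0.05 in every library. The other 25 introns belonged to 15 genes. A further 23 of the 201 introns had no spliced pair in any library, so their fractions rest on no observed splicing. Among the highest fractions in Smn mutants, alternative introns of ND-PDSW (0.99 and 0.99 in Smn mutants, 0.85 and 0.81 in wild type), UQCR-6.4 (0.99 and 0.99, against 0.71 and 0.86) and SdhA (0.99 and 0.99, against 0.95 and 0.90) had no spliced pair. The highest fractions in wild type were of ATPsynO (0.98 and 1.00 in Smn mutants, 0.94 and 0.95 in wild type), the same SdhA intron and ND-MNLL (0.88 and 0.85, against 0.92 and 0.91).

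Retention was compared on log2((retained + 0.5)/(spliced + 0.5)) of the read pairs that fit only the retained or only the spliced form. Introns needed at least 20 such pairs in each library and a mean of at least 10 of each form, which 43 introns of 24 respiratory chain genes had. Of these, 8 reached the minimum of retained pairs through the Smn mutants alone and 0 through wild type alone. For the minimum of spliced pairs these numbers were 2 and 0. Counts and medians over the 43 thus describe the tested introns and not all introns of these genes. In limma's test with Benjamini-Hochberg adjustment over all 3302 introns, 8 of the 43 passed an adjusted p of 0.05, 7 of them higher in Smn mutants and 1 lower; over all tested introns 12.1% passed, 11% higher and 1.09% lower. The 7 that rose belong to complex I (ND-PDSW, ND-15, ND-ACP), complex IV (COX5B) and complex V (ATPsynF, ATPsynE, ATPsyngamma). The 43 introns had a median log2 change of 0.67, beside 0.55 over all tested introns. The groups did not overlap with the mutants above in 25 of the 43 and with the mutants below in 6, beside 50.2% and 13.3% of all tested introns. Left without wild type library 1, the respiratory chain median was 0.44 beside 0.53 for all introns, and on the authors' fraction it was 0.34 beside 0.43, so its place above the general median was not kept. At an unadjusted p under 0.05 in limma there were 22 of the 43, of which 20 were higher, beside 32.5% of all introns.

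**Figure D1:**
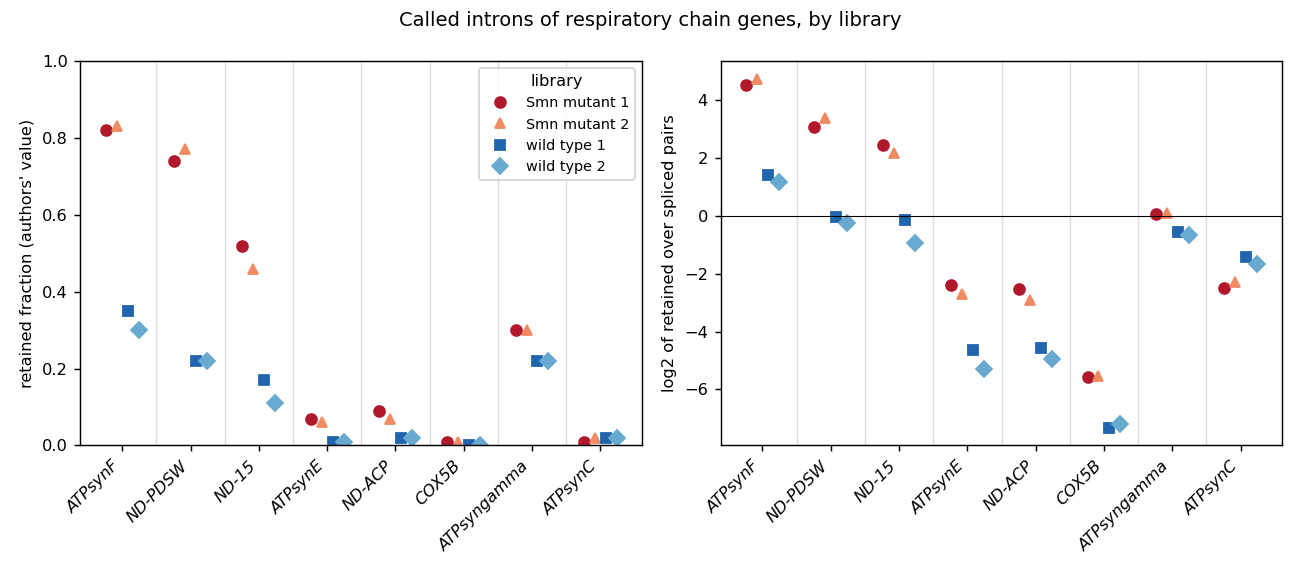
Retained fraction (left) and log2 ratio of retained over spliced read pairs (right) of the 8 called introns in each of the 4 libraries. On the right both mutant points are above both wild type points in 7 introns and below them in ATPsynC; fractions lie farthest apart in ATPsynF, ND-PDSW and ND-15.

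Complex I held 18 of the tested introns, from 8 genes, of which 3 rose and 0 fell, with a median log2 change of 0.77. ND-PDSW, the fly counterpart of human NDUFB10 in the membrane arm, had its first intron (87 bases, dm3 chromosome 2L, 3466229 to 3466315) retained at fractions of 0.74 and 0.77 in Smn mutants, against 0.22 and 0.22 in wild type. The pairs that fit only the retained form numbered 330 and 294 in Smn mutants and 54 and 16 in wild type. Those that fit only the spliced form numbered 39 and 28 in Smn mutants and 55 and 19 in wild type. The retained form thus predominated in both mutant libraries and was the lesser form in both wild type libraries, and the log2 ratio was 3.27 ± 0.34 higher in Smn mutants (SE, limma adjusted p = 0.00674, n = 2 libraries each). This call was kept in each of the 11 other settings run, with adjusted p between 0.000582 and 0.0398. The annotation holds 1 transcript that splices the intron out, in which it lies in the 5′ UTR, and 1 that keeps it. The proteins encoded by both forms were not compared. The 2 downstream introns of ND-PDSW with reads had fractions of 0.00 in every library: the next one had 499 and 428 spliced pairs in Smn mutants against 693 and 378 in wild type, and the last had 633 and 570 against 520 and 307.

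ND-15, an accessory subunit of complex I (human NDUFS5), splices its 5′ UTR from 1 donor to 4 acceptors. The intron of 137 bases (2L 155430 to 155566) was retained at 0.52 and 0.46 in Smn mutants and at 0.17 and 0.11 in wild type. Its retained pairs numbered 1108 and 883 in Smn mutants and 286 and 166 in wild type, while spliced pairs numbered 202 and 196 against 314 and 319. More retained and fewer spliced pairs were thus seen in both mutant libraries, and the log2 change was 2.79 ± 0.26 (SE, limma adjusted p = 0.00622). The intron holds exon sequence of other annotated transcripts of ND-15, 3 of which retain it, so a retained pair can also come from those transcripts. The same donor in the 116-base intron gave fractions of 0.65 and 0.59 in Smn mutants against 0.34 and 0.24 in wild type, with a log2 change in the ratio of 0.81 and an adjusted p of 0.237. The 64-base intron gave 0.69 and 0.63 in Smn mutants against 0.47 and 0.32 in wild type, with 1.27 and an adjusted p of 0.151. The 208-base intron of ND-15 had fractions of 0.91 and 0.92 in Smn mutants against 0.75 and 0.66 in wild type, but with 3 and 8 spliced pairs against 11 and 16 it was not tested. Adjusted p for the 137-base intron of ND-15 ranged from 2.75e-08 to 0.0649 over 11 settings, the highest with the authors' fraction in place of the pair counts.

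ND-ACP encodes the mitochondrial acyl carrier protein, a subunit of complex I that also carries growing fatty acid chains. Its first intron (83 bases, 5′ UTR, 3L 1330048 to 1330130) was retained at 0.09 and 0.07 in Smn mutants and at 0.02 and 0.02 in wild type. The retained pairs were 105 and 84 in Smn mutants against 14 and 5 in wild type, beside 602 and 635 spliced pairs against 342 and 169. The groups did not overlap, and the log2 change was 1.97 ± 0.45 (SE, limma adjusted p = 0.0422). The intron reached the minimum of 10 retained pairs through the mutants alone, with a mean of 9.5 in wild type, and with no minimum per form its call was lost (adjusted p = 0.0948). Left without wild type library 1, Smn mutant library 1 or Smn mutant library 2, this call was lost (adjusted p = 0.0779, 0.102 and 0.0537, in a range of 0.0289 to 0.102 over all settings). Downstream, the 572-base coding intron of ND-ACP stayed at 0.01 and 0.01 in Smn mutants and 0.01 and 0.02 in wild type.

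ND-ACP also held the 1 mutually exclusive exon pair called among 26 tested (3.85%, and 26.9% at an unadjusted p under 0.05 in limma). The fraction with the first exon of the pair was 0.49 and 0.49 in Smn mutants, against 0.40 and 0.38 in wild type. Pairs specific to the first exon numbered 1118 and 1154 in Smn mutants and 854 and 322 in wild type, and those specific to the second 1353 and 1359 against 1453 and 617. The first exon took a larger share in both mutant libraries than in either wild type library, a difference of 0.56 ± 0.09 log2 units (SE, limma adjusted p = 0.0337) whose call was lost without Smn mutant library 1 (adjusted p = 0.0855, in a range of 0.00543 to 0.306 over 11 settings). The skipped exon event over the same stretch had fractions of 0.83 and 0.86 in Smn mutants and 0.90 and 0.86 in wild type, which overlap.

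Further complex I introns had large differences that did not pass. ND-19 (human NDUFA8) had a 51-base first intron at 0.07 and 0.09 in Smn mutants and 0.02 and 0.02 in wild type. Its retained pairs were 33 and 35 against 7 and 1, and the log2 ratio was 2.01 ± 0.60 higher (SE, limma adjusted p = 0.0767). It reached the minimum of retained pairs through the mutants alone, with a mean of 4 in wild type. A 59-base intron from the same donor was at 0.19 and 0.21 against 0.18 and 0.15. Its log2 change was 0.05 (limma adjusted p = 0.925). ND-B17.2 (human NDUFA12) had 0.61 and 0.61 against 0.42 and 0.29 and an adjusted p of 0.127. ND-MNLL had 0.08 and 0.10 against 0.04 and 0.06 and an adjusted p of 0.0824. ND-B22 kept an intron at high fractions in both groups, 0.70 and 0.74 in Smn mutants and 0.75 and 0.84 in wild type.

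In complex II, SdhA, the flavoprotein that binds succinate, had the 1 tested intron. This 87-base first intron in the 5′ UTR was retained at 0.89 and 0.84 in Smn mutants and 0.62 and 0.69 in wild type. Retained pairs numbered 286 and 295 in Smn mutants against 51 and 17 in wild type, and spliced pairs 11 and 20 against 11 and 3. The fractions did not overlap, but the log2 change of 1.94 ± 0.60 (SE) had a limma adjusted p of 0.0828. The minimum of spliced pairs was reached through the mutants alone, with a mean of 7 in wild type. As in ND-PDSW, 1 annotated transcript splices this intron and 1 retains it. In complex III the 1 tested intron was in UQCR-Q, a small subunit, with fractions of 0.07 and 0.06 in Smn mutants and 0.07 and 0.05 in wild type and a log2 change in pairs of 1.19 ± 0.52 (SE, limma adjusted p = 0.175).

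Complex IV held 9 tested introns of 5 genes, of which 1 rose. COX5B, a nuclear subunit on the matrix side of cytochrome c oxidase, had a 433-base coding intron (2L 6557985 to 6558417) at fractions of 0.01 and 0.01 in Smn mutants and 0.00 and 0.00 in wild type. Retained pairs were 41 and 38 in Smn mutants against 13 and 6 in wild type, among 1958 and 1785 spliced pairs against 2172 and 958. The log2 change was 1.74 ± 0.39 (SE, limma adjusted p = 0.0407), but the retained fraction did not exceed 0.01 in any library. This intron too reached the minimum of retained pairs through the mutants alone, with a mean of 9.5 in wild type, and with no minimum per form the adjusted p was 0.0537. On the authors' fraction, which is rounded, the change was 1.01. This intron adds 3 in-frame stop codons. Its call was lost without wild type library 1, Smn mutant library 1 or Smn mutant library 2 (adjusted p = 0.137, 0.128 and 0.113, range 0.00123 to 0.137), and with the replicate block (adjusted p = 0.0704). The same intron with a donor 1 or 2 bases upstream changed by 1.39 and 1.39, with adjusted p of 0.0533 and 0.0531. COX5A, COX6B, COX7A and COX7C made up the remaining 6, with log2 changes between -0.52 and 0.60 and no call. The introns of COX6B overlap CG18809 and cannot be told apart from it.

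Complex V held 14 tested introns of 9 genes, of which 3 rose and 1 fell. ATPsynF, a subunit of the membrane sector, had a 67-base first intron in the 5′ UTR (2R 20487223 to 20487289) at 0.82 and 0.83 in Smn mutants and 0.35 and 0.30 in wild type. Retained pairs numbered 286 and 280 in Smn mutants against 35 and 14 in wild type, and spliced pairs 12 and 10 against 13 and 6. The mutants thus had many more retained pairs beside like numbers of spliced ones. The log2 ratio was 3.30 ± 0.53 higher (SE, limma adjusted p = 0.0199). This intron reached the minimum of 10 spliced pairs through the mutants alone, with a mean of 11 in Smn mutants and 9.5 in wild type. It was tested in 8 other settings, with log2 changes of 3.20 to 3.35, and fell below the minimum in the rest. The call was lost without Smn mutant library 2 (log2 change 3.20). The limma adjusted p was 0.00853 on the authors' fraction and 0.0491 with no minimum per form. The coding intron of ATPsynF stayed at 0.01 and 0.01 in Smn mutants against 0.00 and 0.00 in wild type, with 1.99 ± 0.67 (SE, limma adjusted p = 0.099). This coding intron reached the minimum of retained pairs through the mutants alone, with a mean of 3.5 in wild type.

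ATPsynE, the e subunit that helps ATP synthase form dimers, retained a 125-base 5′ UTR intron at 0.07 and 0.06 in Smn mutants and 0.01 and 0.01 in wild type. Retained pairs were 238 and 162 in Smn mutants against 37 and 8 in wild type, and spliced pairs 1247 and 1057 against 942 and 333. The groups did not overlap, and the log2 ratio was 2.25 ± 0.33 higher in Smn mutants (SE, limma adjusted p = 0.0151; 0.00221 to 0.0621 over 11 settings, the highest with no minimum per form). The intron holds an exon of another annotated transcript of ATPsynE. ATPsyngamma, the rotating central stalk, retained its 54-base 5′ UTR intron at 0.30 and 0.30 in Smn mutants and 0.22 and 0.22 in wild type. Its retained pairs were 382 and 338 in Smn mutants against 265 and 82 in wild type, and spliced pairs 369 and 314 against 392 and 131. The change was small, 0.67 ± 0.14 (SE, limma adjusted p = 0.0346), and the call was lost without wild type library 1, Smn mutant library 1 or Smn mutant library 2 (adjusted p = 0.0702, 0.112 and 0.112, range 0.00355 to 0.255) and with the replicate block (0.0627). A 75-base intron from the same donor of ATPsyngamma was at 0.58 and 0.59 in Smn mutants and 0.58 and 0.56 in wild type.

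The 1 intron that fell lies in ATPsynC, the membrane ring that turns with proton flow. It is a 1019-base form (3R 27043646 to 27044664) with 924 and 1056 pairs counted as retained in Smn mutants against 790 and 143 in wild type, and 5190 and 5208 spliced pairs against 2114 and 454. The log2 change was -0.93 ± 0.11 (SE, limma adjusted p = 0.00868), and the fraction stayed at 0.01 and 0.02 in Smn mutants and 0.02 and 0.02 in wild type. On that fraction the change was -0.51 with an adjusted p of 0.531, the highest of a range from 0.000197 in limma. An intron with the same 5′ splice site ends 21 bases earlier in the transcript, so those 21 bases are exon in the other form. A pair counted as retained for the longer intron can thus come from that spliced form, and its fall need not be one of unspliced RNA. That 998-base intron had 74 and 52 retained pairs in Smn mutants against 22 and 6 in wild type, and 11539 and 12370 spliced pairs against 6004 and 1205. The longer form took 31.02% and 29.63% of the spliced pairs of both in Smn mutants, against 26.04% and 27.37% in wild type, so the shares did not overlap and differed by a few percentage points. The coding intron next to it in ATPsynC, which overlaps an RNA gene, changed by 0.85 ± 0.21 (SE, limma adjusted p = 0.0509).

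**Figure D2:**
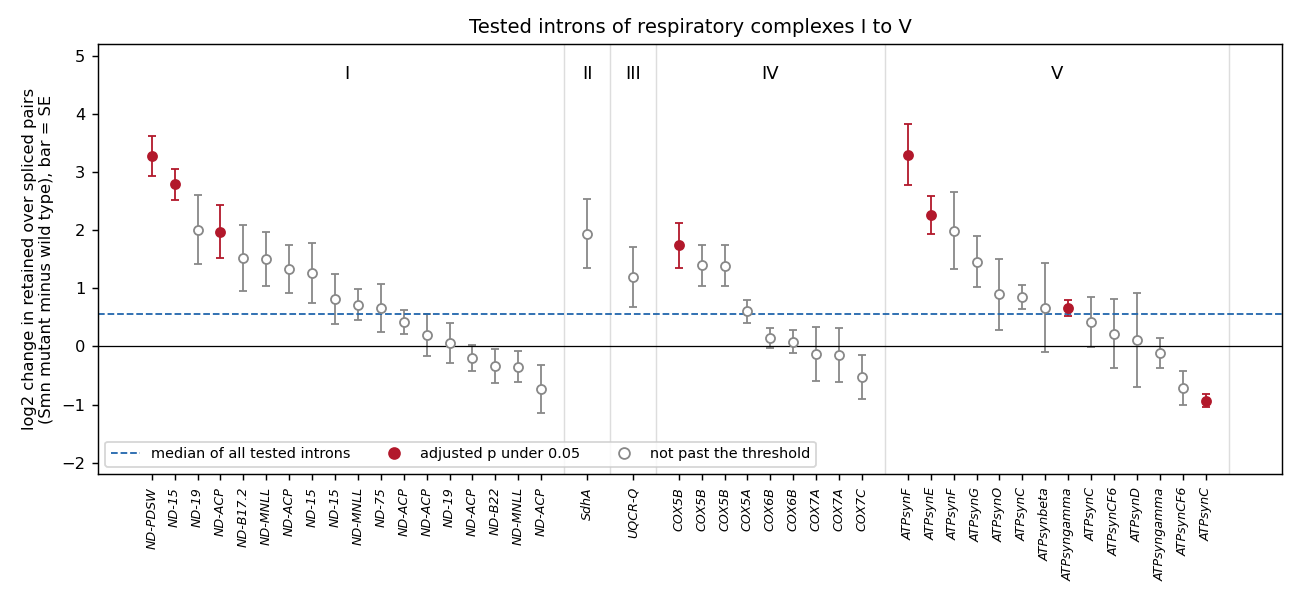
Log2 change in the ratio of retained over spliced pairs, Smn mutant minus wild type, with its SE, for the 43 tested introns of respiratory chain genes by complex. Filled points passed an adjusted p of 0.05, and the dashed line is the median of all 3302 tested introns, 0.55; the largest changes are those of ATPsynF (3.30) and ND-PDSW (3.27).

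Where the introns lie was not itself a criterion of the test. The minimum of retained pairs leaves out introns with few such pairs, so the positions tested need not be those of all introns. Of the 7 introns that rose, 6 lie in the 5′ UTR and 1 in the coding region, each is a first intron of an annotated transcript, and 4 (ND-PDSW, ND-15, ATPsynF, ATPsyngamma) are retained in an annotated transcript. Of the 32 tested introns of these genes found in the annotation, 21 lie in a 5′ UTR, 9 in the coding region and 26 are first introns. Their lengths run from 51 to 3096 bases with a median of 166, and those that rose from 54 to 433 with a median of 87. In the 5′ UTR 6 of 21 rose, beside 14.7% of 823 such introns over all genes, and in the coding region 1 of 9 rose, beside 10.9% of 1833. Among first introns 7 of 26 rose, beside 15.1% of 1433, and among introns with an annotated retaining transcript 4 of 9 rose, beside 20.7% of 276. The introns that rose include those of ND-ACP (5′ UTR) and COX5B (coding region). Both reached the minimum of retained pairs through the mutants alone, and the intron of ATPsynF so reached that of spliced pairs. These shares thus describe the tested introns only. Of the 7 that rose, 5 were free of any other annotated exon, and those of ND-15 and ATPsynE were not.

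The authors' own Bayes factors gave a shorter list. An intron was counted when all 4 pairings of a mutant with a wild type library reached a Bayes factor of 10 and a shift of 0.2 in fraction to the same side. Among 201 respiratory chain introns 5 were higher in Smn mutants and 0 lower, beside 0.64% and 0.13% of 23758 introns of all genes. These were the introns of ND-PDSW and ATPsynF, the 137-base and the 116-base intron of ND-15, and an ATPsynC intron. The ATPsynC intron (3R 27042457 to 27043461) had fractions of 0.78 and 0.66 in Smn mutants and 0.38 and 0.44 in wild type, and overlaps RNaseP:RNA, with no spliced pair in any library, so no count of splicing stands behind that difference.

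No other splicing event of these genes was called. The tests covered 8 alternative 5′ splice site events of 5 genes, with 0 called, beside 6.47% of 433 over all genes. They also covered 2 skipped exons and 1 alternative 3′ splice site, where no event of any gene was called among 210 and 36 (38 and 6 at an unadjusted p under 0.05). None of these 11 events of respiratory chain genes had an unadjusted p under 0.05 in limma. The alternative donor of ATPsynD, a peripheral stalk subunit, had fractions of 0.56 and 0.57 in Smn mutants against 0.44 and 0.40 in wild type, with an adjusted p of 0.199. In ND-19 the alternative acceptor had 0.62 and 0.65 against 0.71 and 0.68, with an adjusted p of 0.376.

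Spliced read pairs across each intron, scaled to the library's total, served as a measure of spliced transcript. In limma's trend test none of 132 introns in 56 respiratory chain genes passed an adjusted p of 0.05, beside 0.191% of 9957 over all genes. At an unadjusted p under 0.05 there were 17, all higher in Smn mutants, beside 24.9% of all introns in either direction. The median log2 change was 0.66 in these genes and 0.24 over all introns. The groups did not overlap with the mutants above in 73 of the 132 introns and with the mutants below in 6, beside 38.9% and 21.2% of all introns. Scaling by the median of ratios lowered the median over all introns to -0.01 and that of these genes to 0.41, with 37 of the 132 below 0 in place of 17.

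The comparison turned on which wild type library was used. The median of log2 scaled spliced pairs over the 132 introns was 8.50 and 8.58 in Smn mutants, against 8.36 and 7.35 in wild type, while over all introns it was 5.65 and 5.77 against 5.54 and 5.52. Without wild type library 2 the median change of respiratory chain introns was 0.17, below the 0.23 of all introns, and 22 of 132 were called (16 higher and 6 lower), beside 33.9% of all introns. Without wild type library 1 the median change was 1.15, and 98 of 130 were called (97 higher and 1 lower), beside 51.9%. In each of these fits the lone wild type library was assumed to vary like the mutants.

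**Figure D3:**
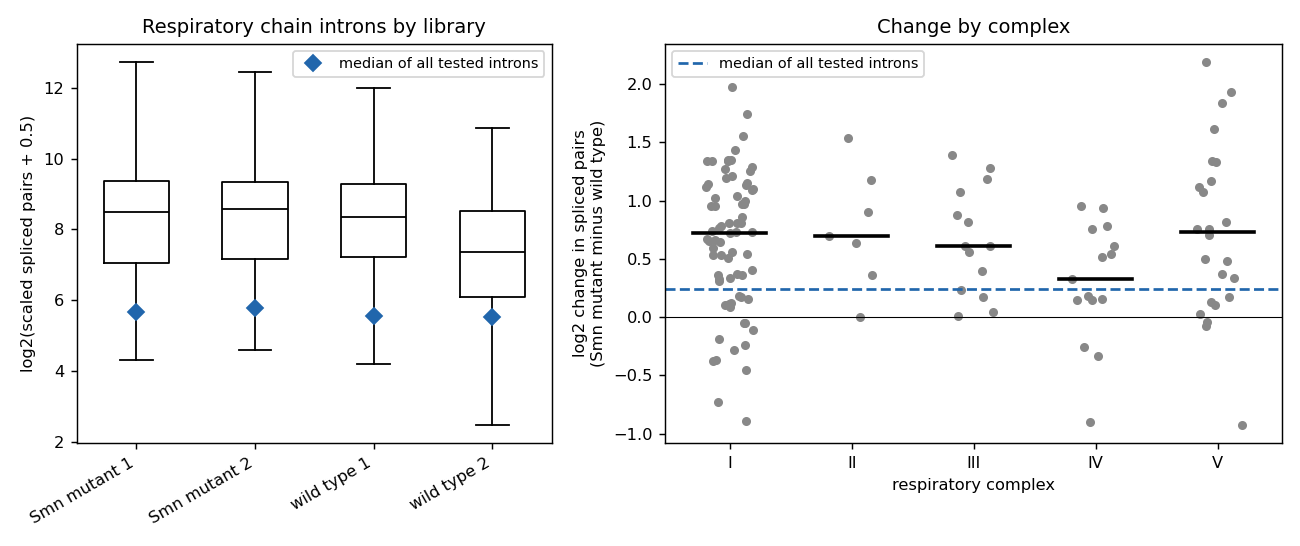
Left, log2 of scaled spliced pairs of the 132 respiratory chain introns in each library (box, quartiles and median; whiskers, farthest value within 1.5 times the box height; diamonds, median of all introns); wild type library 2 has a median of 7.35 and the other libraries 8.36 to 8.58. Right, log2 change of each intron by complex, with the complex median as a bar and the median of all introns, 0.24, as a dashed line.

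By complex, the median log2 change in spliced pairs was 0.73 over 72 introns of complex I, 0.70 over 7 of complex II, 0.61 over 14 of complex III, 0.32 over 15 of complex IV and 0.73 over 24 of complex V. The largest changes in complex I were in ND-42 (29 and 26 spliced pairs in Smn mutants against 15 and 2 in wild type, log2 change 1.98, adjusted p = 0.206 by limma) and in a 575-base form of ND-ACP (70 and 88 against 30 and 13, 1.75, adjusted p = 0.111 by limma, the lowest of the 132). In complex II they were in SdhA, with 393 and 471 spliced pairs in Smn mutants against 253 and 64 in wild type for one intron and 241 and 322 against 218 and 51 for another. In complex III they were in UQCR-C1, a core protein, with 770 and 762 against 479 and 131 and with 795 and 839 against 599 and 139. In complex IV the largest were COX8, with 1251 and 1454 spliced pairs in Smn mutants against 947 and 376 in wild type, and COX6B, with 649 and 620 against 457 and 177. In complex V the 2 ATPsynC introns described above led, with log2 changes of 2.19 and 1.93 and adjusted p of 0.131 and 0.155 by limma. In each of these introns wild type library 2 held the lowest count.

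The introns that rose in retention did not share a direction in spliced pairs. The log2 change in spliced pairs was -0.89 in the 137-base intron of ND-15 (adjusted p = 0.22 by limma) and -0.19 in ND-PDSW (0.836). It was 0.15 in COX5B (0.848), 0.37 in ATPsyngamma (0.683), 0.82 in ATPsynE (0.339) and 1.14 in ND-ACP (0.165), and the intron of ATPsynF had too few spliced pairs to be tested.

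Other respiratory chain genes and assembly factors that the naming rule does not take (14 genes in the reference, 10 with introns) had 7 tested introns with 0 called and a median log2 change in retention of 0.37. Genes of the tricarboxylic acid cycle had 9 tested introns, of which 1 rose and 0 fell, with a median of 0.67. The one that rose is in kdn, citrate synthase, with 88 and 100 retained pairs in Smn mutants against 22 and 0 in wild type, beside 1117 and 1143 spliced pairs against 1111 and 114 (limma adjusted p = 0.0252), and fractions of 0.00 in every library. Mitochondrial ribosomal protein genes had 2 tested introns and 0 calls. In spliced pairs the medians were 0.88 over 21 introns, 0.65 over 31 and 0.68 over 64, with 0 called in each list (3, 6 and 24 at an unadjusted p under 0.05 in limma). In the authors' deposited table of Smn mutants against wild type the 3 lists had 3 exon bins higher and 4 lower of 38, 6 higher and 5 lower of 43, and 5 higher and 5 lower of 190. Over bins of all genes, of any count, 2.99% passed in that table. Of the marker lists, muscle genes had 42 introns tested for retention, of which 6 rose, and fat body genes 7, of which 5 rose, beside 11% of all tested introns. Neuron and gut genes had 3 each with 0 called, and testis and salivary gland genes had none tested.

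Exon usage in the authors' deposited table of Smn mutants against wild type gave 43 of 283 tested respiratory chain bins an adjusted p under 0.05, in 25 genes, 24 bins higher and 19 lower in Smn mutants. Over all genes 2.99% of bins passed in the authors' deposited table. The respiratory chain bins were counted far more deeply, with a median mean normalized count of 405.5 beside 37.95 over all bins. Among bins with a mean normalized count of at least 50, 42 of 227 respiratory chain bins passed (18.5%), beside 6.03% over all genes in the authors' deposited table. Among those with at least 500, a limit chosen after seeing the data, 22 of 116 passed (19%), beside 19.1% of 3235 over all genes in the authors' deposited table. At this depth the share in these genes was thus that of all genes. The called changes were small, with a median absolute log2 fold of 0.21 in the authors' deposited table, beside 0.26 over all called bins.

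**Figure D4:**
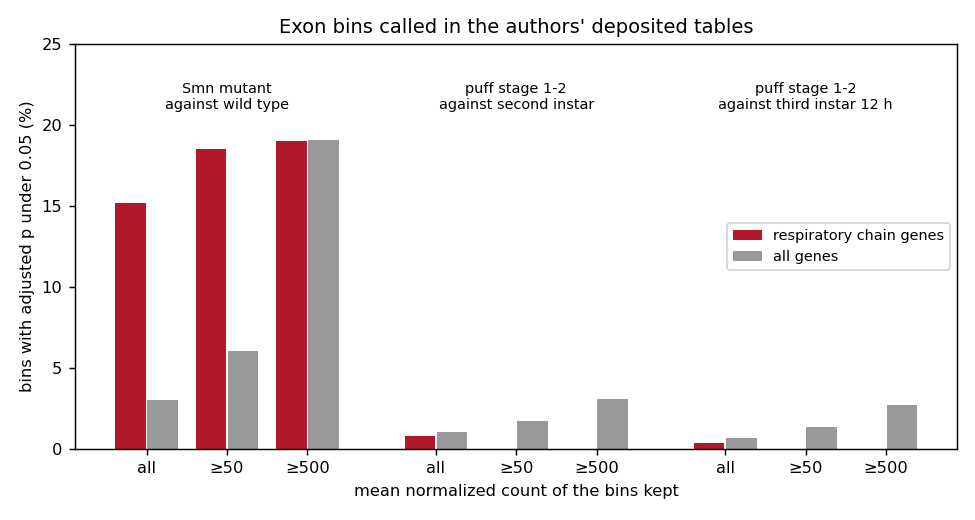
Percent of exon bins with an adjusted p under 0.05 in the authors' deposited tables, for respiratory chain genes and for all genes, over all bins and over bins with a mean normalized count of at least 50 or 500. In Smn mutants against wild type the shares are 15.2% and 2.99% over all bins and 19% and 19.1% at 500; in the stage tables no respiratory chain bin of at least 50 passed.

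The lowest adjusted p in the authors' deposited table belonged to bin 6 of ND-15 and bin 2 of ND-MLRQ, both listed with p of 0. Bin 6 of ND-15 had a log2 fold of 0.93 at a mean normalized count of 146.7 in the authors' deposited table. The authors merged ND-15 with its neighbour CG3436, so a bin may belong to either gene. Bins 3, 4 and 5 of this merged pair were also higher (0.50, 0.48 and 0.57) and bins 7, 8 and 13 lower (-0.11, -0.39 and -0.37) in the authors' deposited table. ND-MLRQ, a small subunit related to human NDUFA4, had a log2 fold of 0.67 at a mean of 274.8 in bin 2 and of -0.15 in bin 5. Next were bin 3 of ATPsynF (log2 fold 0.62, adjusted p = 2.34e-11) and bin 3 of ATPsynCF6, a peripheral stalk subunit (0.25, adjusted p = 2.33e-09), in the authors' deposited table.

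For ND-PDSW and ATPsynF the bins could be set beside the retained introns. The dm6 annotation divides each gene into 5 bins, as many as in the authors' deposited table, and the second of ND-PDSW and the third of ATPsynF are the introns described above. In the authors' deposited table bin 2 of ND-PDSW had a log2 fold of 0.86 (adjusted p = 4.95e-08, mean normalized count 105.7), while bins 1, 3, 4 and 5 had 0.03, -0.15, -0.04 and 0.06 with adjusted p from 0.0727 to 0.984. Bin 3 of ATPsynF had 0.62, and its other bins lay between -0.20 and -0.04 with adjusted p from 0.258 to 0.962. The tables and the event files come from the same 4 libraries, so these values are no independent measurement. That deposited bins carry the same numbers as the dm6 bins was inferred from equal counts of bins, since the deposited bins have no coordinates.

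**Figure D5:**
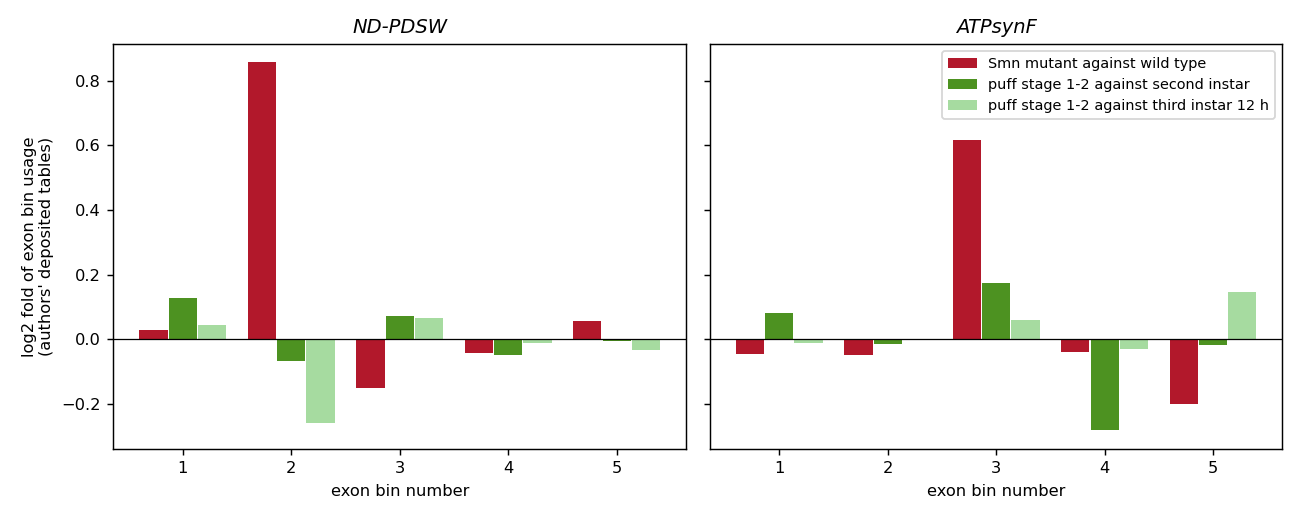
Log2 fold of usage of the 5 exon bins of ND-PDSW and ATPsynF in the authors' 3 deposited tables. Bin 2 of ND-PDSW (0.86) and bin 3 of ATPsynF (0.62) stand out in Smn mutants against wild type, and no bin of either gene passed an adjusted p of 0.05 in the stage tables.

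Other genes had a called bin in the authors' deposited table of Smn mutants against wild type. In complex I these were ND-75 (bin 2, log2 fold 0.25), ND-B14.7, ND-ACP, ND-42, ND-SGDH and ND-24, between -0.17 and 0.28. In complex II SdhA had bins 4, 5 and 6 higher (0.25, 0.77 and 0.69) and bin 3 lower (-0.18) in the authors' deposited table. In complex III UQCR-Q had bin 7 lower (-0.79), UQCR-C2 bin 4 lower (-0.13), and UQCR-C1 bins 4 and 7 at -0.13 and 0.12. In complex IV COX7C (bin 5, -1.03 at a mean of 23.8 counts) and COX6B (bin 2, -0.84, merged with CG18809) had the largest log2 folds in the authors' deposited table, followed by COX7A, COX5B and COX5A between -0.30 and 0.21. In complex V ATPsynG had bin 3 at 0.49 and bin 1 at -0.15, and ATPsynbeta, ATPsyndelta, ATPsynB and ATPsynC lay between -0.18 and 0.18.

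The stage tables, made from published libraries that include none of the 4 larval libraries, held few calls. In the authors' deposited table of puff stage 1-2 against the second instar, 2 of 263 respiratory chain bins passed, beside 1.03% of all bins. Both belong to COX6AL2, which the authors merged with Ir75d; bin 1 had a log2 fold of -0.07 and bin 2 one of 14.57 at a mean normalized count of 3.73, both with adjusted p = 0.00308 in the authors' deposited table. So low a count leaves the size of that fold undetermined. In the authors' deposited table of puff stage 1-2 against the third instar at 12 h, 1 of 263 bins passed, beside 0.638% of all bins: bin 9 of ND-MWFE merged with Nrk, with a log2 fold of 0.79 and adjusted p = 0.0078. Among bins with a mean normalized count of at least 50, 0 of 204 respiratory chain bins passed in the second instar comparison and 0 of 199 in the other, beside 1.72% and 1.37% of all bins in the authors' deposited tables. With at least 500 it was 0 of 55 and 0 of 44, beside 3.1% and 2.68%. These 2 tables share the puff stage libraries. Bin 2 of ND-PDSW had log2 folds of -0.07 and -0.26 in the authors' deposited tables against the second instar and against the third instar at 12 h, at mean normalized counts of 10.2 and 10.8. Bin 3 of ATPsynF had 0.17 and 0.06, and bin 2 of ND-MLRQ had -0.03 and -0.60, all with adjusted p = 1 in the authors' deposited tables. None of the 43 bins called in Smn mutants passed in either stage table.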

How the data were processed

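RNA of 2 Smn mutant and 2 wild type libraries was aligned with TopHat2 2.0.8 and Bowtie2 2.1.0 to dm3, per the deposited readme. Per the deposited readme, the authors ran MISO 0.4.8 on modENCODE events and compared libraries in pairs. Per the file headers, these deposited files hold a fraction (posterior mean, rounded to 0.01), a Bayes factor, which is a ratio of evidence, and read counts by class of compatible isoform. The authors' exon usage tables (DEXSeq 1.0.2 or later, per the deposited readme) hold log2 folds, p-values with their adjusted values, and a mean normalized count, a signal that the authors averaged.

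Groups came from the titles. Events were matched to genes by exon and intron lengths and spacing in the dm6 annotation (Ensembl), where at least 2 of the 10 nearest matches shared a displacement; 197 events of respiratory chain genes were matched and 74 lay inside matched events of a gene. No coordinate was converted. Ratios of isoform-specific pairs (pseudocount 0.5, weights from counting variance) and scaled spliced pairs (at least 20 in at least 2 libraries) were compared between the groups with limma (version 3.58.1, R 4.3.3), with p-values adjusted over each event type. Counting weights cover counting error only, since read pairs are not independent molecules. A two-sided exact permutation test of a single value cannot go below 0.33 with 2 libraries a group. The minimum of 10 pairs per isoform is a mean over all 4 libraries. Where a gene has overlapping events, its introns share reads. Fits were run on simulated data with the same added spread in all 4 libraries. Such data do not cover the larger spread between the wild type libraries. Respiratory chain genes, comparison lists and the filter were chosen with earlier results of these data known. Genes named are those called, the 3 introns per complex with the largest change in retention and the 2 with the largest in spliced pairs, ND-PDSW, genes with a called bin, the 3 highest fractions per group and those called by Bayes factor. ND-B17.2, ND-B22, ND-MNLL (its shorter intron), ATPsynD and the further introns and events of called genes were named after their values were seen. Alternatives were other minimums, pseudocounts, weights, scalings and thresholds, the authors' fraction, a replicate block and leaving out each library.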

Additional observations from a re-analysis of the deposited data

How the results depend on the processing

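Of 9 single events called, the direction was kept in all 96 alternative fits that tested them and the call in 70. The intron of ATPsynF fell below the minimum in some settings. The 8 called retained introns became 2 with no minimum per form (of 154 tested) and 5 on introns free of other annotated exons, which drops introns and was chosen after seeing the data; leaving out 1 library gave 4 (without either mutant library) to 13 (without wild type library 2). The other splicing event called (ND-ACP) was lost, leaving 0, with no minimum per form, without weights and on the authors' fraction, and over libraries left out the count ran from 0 to 1. Over all genes the share of introns called in retention fell as well, from 12.1% of 3302 to 0.392% of 11481 with no minimum per form. The introns free of other annotated exons were 14 of those tested. The number tested also changed with the library left out, from 41 without either mutant library to 59 without wild type library 2. Such fits leave 1 library in a group, so their counts of retained introns were not set beside a share over all genes. The median retention change, 0.67, was 0.34 on the authors' fraction (0.43 over all introns) and 0.44 to 0.82 with 1 library left out. This median lay below that of all introns without wild type library 1 (0.44 beside 0.53). It lay above that of all introns without each of the others, such as wild type library 2 (0.82 beside 0.63). For spliced pairs, leaving out 1 library gave 0 to 98 calls and medians of 0.17 to 1.15. The Bayes factor list of 5 became 10 at a difference of 0.1, and 5 to 8 with 1 library left out. The 43 exon bins became 28 at an adjusted p of 0.01 and 22 at a mean count of 500; the 2 bins of the second instar table and the 1 of the third instar 12 h table became 0 at a mean of 50 or 500 and without merged genes, and the 1 became 2 at an adjusted p of 0.1. Shares over all genes were not counted for the introns free of other annotated exons, the Bayes factor list at a difference of 0.1 or the bins at an adjusted p of 0.01. Same-numbered libraries did not deviate together (correlation 0.038 over 3302 introns in retention and -0.017 over 9957 in spliced pairs). With 2 libraries per group and wild type libraries this far apart, that cannot show whether the numbers pair them. With the replicate block 6 retained introns were called and 0 introns in spliced pairs, and the medians were 0.68 and 0.66. The cause of these shifts was not tested, apart from those that drop features or libraries. Wild type library 2 had the fewest read pairs of the 4 larval libraries.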
